A study of Mus musculus with 4 samples.

Results

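Antiviral interferon-stimulated genes are the transcripts that cells switch on when they receive an interferon signal. The list held 43 such genes by name. The interferon regulatory factors, the STAT genes and the guanylate-binding and immunity-related GTPases were left out as families, although Ifi47, a GTPase gene, was kept. Of the 43 genes, 40 had at least 1 probe set of their own on the array, 74 probe sets in all. Where a gene had several, the one of highest mean signal over the 4 arrays stood for it. Of the 40, 39 passed a filter on dim signals (a mean log2 value at or above the 40th percentile, a signal of about 40.5) and were tested among 12105 genes. Mx2 was below that filter, with signals of 41.8 and 7.11 in wild-type against 11.3 and 15.0 in labelled-deficient cells. Isg15 was covered only by a probe set that the platform annotation shares between several genes, and Ifi44 and Ly6a had no probe set under their symbol in the annotation used here, so these 3 genes were not analysed here.

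Interferons bind receptors at the cell surface and act through JAK kinases and STAT proteins, which with Irf9 reach a DNA element called the interferon-stimulated response element (ISRE). Type I interferons and interferon-gamma share many target genes; interferon-gamma acts mainly through a shorter element called GAS. The products block viruses at separate steps. IFITM proteins act in membranes, OAS enzymes and PKR sense double-stranded RNA, RIG-I and MDA5 raise the alarm, and the immunoproteasome and TAP feed peptides to MHC class I. In Treg cells, the Foxp3-expressing lymphocytes that restrain other immune cells, interferon signals accompany the Th1-like state that these cells take on in inflamed tissue.

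The samples were Treg cells from the spleen of C57BL/6 mice: 2 arrays titled wild-type and 2 titled Foxo1/3-deficient, in 2 numbered pairs that each hold 1 array of either kind. Foxo1 and Foxo3 are transcription factors that PI3K and AKT signalling keeps out of the nucleus. The genotype entry of the latter gives only Foxo1. Ages, the cells in which the genes were deleted and any pooling of animals were not given. No label says whether each array holds another animal, so the p-values measure only the spread between these arrays. The 3 Foxo1 probe sets above the filter were higher on both labelled-deficient arrays, with 6949 and 6697 against 2383 and 1254 on the brightest, while Foxo3 read 1424 and 1308 against 1876 and 2635. Where these probes lie relative to the deleted part is not known here, and probes outside it would not check the labels. Every direction below is that of the arrays as labelled. The pairs also differed in sex-linked transcripts. The Y-linked gene Eif2s3y read 10.3 and 4.01 on the wild-type and labelled-deficient arrays of pair 1 against 5396 and 6414 in pair 2, and Xist read 11569 and 11497 against 4589 and 83.0. The wild-type array of pair 2 thus held both Xist and Y-linked signal. The 2 arrays of each label therefore differed in the animals they held, and the spread between them is not only technical. How many animals each array holds is not known. Markers that define Treg cells were present on all arrays. Foxp3 read 6539.8 and 6285 in wild-type against 6504 and 6056 in labelled-deficient cells. Il2ra (2449 and 3584 against 4416 and 3962) and Ctla4 (6516 and 6960 against 7377 and 8287) were higher on both labelled-deficient arrays. The groups overlapped for Ikzf2, Cd4 and Cd3e, as for Foxp3, and none of these 6 genes was called by genotype. In each such list of values, pair 1 comes first and pair 2 second, and signals are MAS5 intensities on a linear scale.

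Promoter windows from RefSeq (build GRCm38.p6, 250 bases before to 50 after a transcript start) were found for 31 of the 43 genes. The windows below belong to the 3 Ifitm genes, which changed most, to Oas1a and Rsad2, which changed less, and to Ifit1, which was called between the pairs and not between genotypes. Capitals mark matches on either strand to the ISRE core (2 GAAA runs with 2 free bases between them), or, once each in the Ifitm1 and Rsad2 windows, to the FoxO site GTAAACA (written TGTTTAC where it lies on the other strand). Ifitm1 lies at chr7:140967826-140968125, plus strand, Ifitm2 at chr7:140955912-140956211, minus strand, Ifitm3 at chr7:141010695-141010994, minus strand, Oas1a at chr5:120907476-120907775, minus strand, Rsad2 at chr12:26456403-26456702, minus strand and Ifit1 at chr19:34640639-34640938, plus strand; each window reads 5′ to 3′ along its gene.
Ifitm1: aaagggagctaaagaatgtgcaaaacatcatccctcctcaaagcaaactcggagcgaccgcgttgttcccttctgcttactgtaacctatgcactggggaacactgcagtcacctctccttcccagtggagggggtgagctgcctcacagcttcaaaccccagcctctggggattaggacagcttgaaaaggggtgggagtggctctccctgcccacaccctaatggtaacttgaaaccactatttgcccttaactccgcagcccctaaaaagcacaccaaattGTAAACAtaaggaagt
Ifitm2: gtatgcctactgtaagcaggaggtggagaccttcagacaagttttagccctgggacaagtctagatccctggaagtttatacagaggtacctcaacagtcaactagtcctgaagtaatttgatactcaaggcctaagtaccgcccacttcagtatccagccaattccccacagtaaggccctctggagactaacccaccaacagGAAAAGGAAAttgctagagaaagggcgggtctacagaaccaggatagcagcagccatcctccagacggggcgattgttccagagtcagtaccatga
Ifitm3: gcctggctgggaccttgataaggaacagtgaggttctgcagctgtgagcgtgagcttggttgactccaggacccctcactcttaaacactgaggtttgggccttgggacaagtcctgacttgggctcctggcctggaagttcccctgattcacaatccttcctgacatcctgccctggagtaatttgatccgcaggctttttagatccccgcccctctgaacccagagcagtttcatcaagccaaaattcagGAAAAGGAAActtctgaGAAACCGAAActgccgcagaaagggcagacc
Oas1a: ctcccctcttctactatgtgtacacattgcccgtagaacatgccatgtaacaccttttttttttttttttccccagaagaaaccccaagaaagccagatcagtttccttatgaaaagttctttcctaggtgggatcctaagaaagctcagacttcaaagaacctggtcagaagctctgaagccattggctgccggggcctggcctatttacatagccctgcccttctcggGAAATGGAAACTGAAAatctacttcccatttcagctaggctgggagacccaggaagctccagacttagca
Rsad2: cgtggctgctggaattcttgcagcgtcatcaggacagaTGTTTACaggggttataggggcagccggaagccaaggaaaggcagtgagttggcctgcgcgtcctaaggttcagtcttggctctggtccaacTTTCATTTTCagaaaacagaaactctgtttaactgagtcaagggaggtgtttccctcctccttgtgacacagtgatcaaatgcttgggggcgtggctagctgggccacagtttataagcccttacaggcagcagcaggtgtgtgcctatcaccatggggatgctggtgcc
Ifit1: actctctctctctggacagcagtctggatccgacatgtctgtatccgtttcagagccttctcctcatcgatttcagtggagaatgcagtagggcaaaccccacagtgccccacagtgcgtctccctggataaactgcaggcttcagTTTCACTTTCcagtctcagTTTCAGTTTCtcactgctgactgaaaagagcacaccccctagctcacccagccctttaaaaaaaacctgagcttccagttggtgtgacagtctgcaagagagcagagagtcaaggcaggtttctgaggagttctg
An ISRE core was found in 13 of the 31 members' windows (41.9%) and in 3.99% of all 27025 genes with a window. The GAS core TTCNNNGAA was found in 9 of 31 (29.0%) against 9.55%, and in the Ifitm3 window it overlaps 1 of the 2 ISRE cores. The FoxO site was found in 2 of 31 (6.45%) against 4.05%. Of the 12 members with a window that were lower when the pair was a block (below), 6 held an ISRE core, as did 6 of the 16 that were tested and not called. The windows of Ifitm1, Cmpk2, Tap1 and Psmb9 held no ISRE core; a match is only a match of letters, and elements outside the window were not looked for.

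Most members had a log2 difference below 0, and the 3 Ifitm genes had the largest among the 39. Ifitm1, Ifitm2, Ifitm3 and Cmpk2 fell past the threshold (limma, adjusted p under 0.05), so that 4 of 39 were lower and 0 higher, where 1.37% and 1.23% of all genes were called in those directions (2.60% in either). At an unadjusted p under 0.05, 17 were lower and 1 higher (7.05% of all genes were lower at that level). Without the filter on dim signals, or without the intensity trend in the variance, Ifitm1 was the 1 member called. With the pair number as a block in the fit, 16 of 39 were lower and 1 higher, against 6.60% and 5.51% of all genes (12.1% in either direction). The log2 difference lay below 0 for 35 of 39 (50.3% of all genes), its median was -0.36 against -0.0032 over all genes, and it was below 0 in both pairs for 29 of 39 (31.7% of all genes).

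The blocked fit rests on 1 residual degree of freedom and the unblocked fit on 2, and both lean on the variance shared across genes. For 24 of 39 genes both labelled-deficient arrays lay below both wild-type arrays (21.1% of all genes), and for 1, Samhd1, above (20.0%; 41.0% in either direction). In 13 genes the signal was at least 1.5-fold lower in each pair on the log2(signal + 17) scale (5.77% of all genes), in 0 at least 1.5-fold higher in each (5.28%), and in 0 did the pairs move that far in opposite directions (1.61%). The median log2 difference was -0.41 in pair 1 and -0.47 in pair 2.

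**Figure D1:**
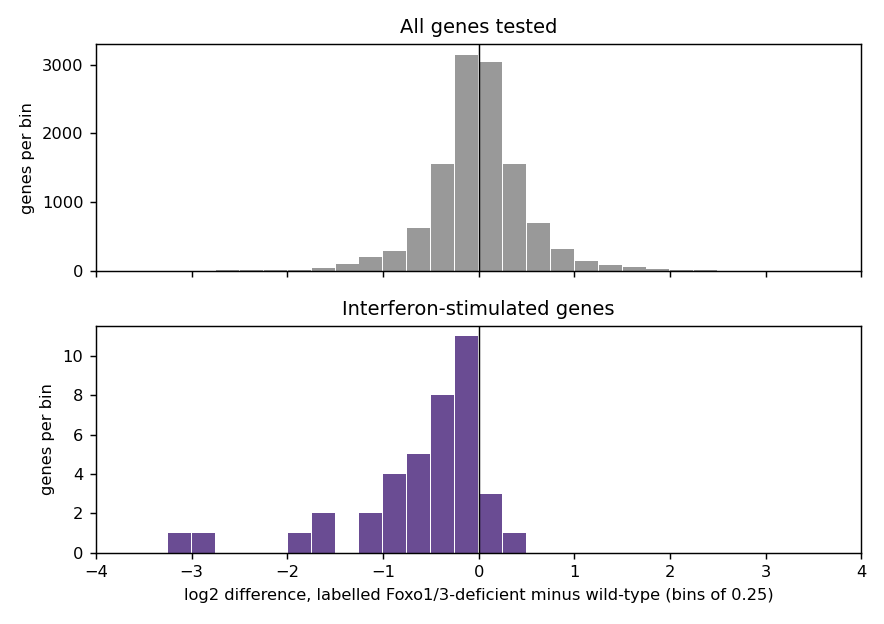
Log2 differences (labelled Foxo1/3-deficient minus wild-type, log2(signal + 17), bins of 0.25) of all 12105 genes tested (top) and of the 39 interferon-stimulated genes (bottom), as genes per bin. The 39 spread from -3.06 to 0.50 with 35 below 0, while all genes centre near 0.

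The membrane-restriction genes Ifitm1, Ifitm2 and Ifitm3 fell, and Bst2, which encodes the virion-tethering protein tetherin, was not called. IFITM proteins sit in plasma and endosomal membranes and keep enveloped viruses from fusing. Ifitm1 read 1167 and 1800.2 in wild-type against 133 and 189.8 in labelled-deficient cells. It was 8.33-fold lower (log2 -3.06 ± 0.32, SE; limma adjusted p = 0.00552), the groups stood far apart, and the signal ratios within the pairs were close, at 8.78 and 9.48.

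Ifitm2 read 903 and 806 against 204 and 56.1, 6.84-fold lower (log2 -2.77 ± 0.49, limma adjusted p = 0.0333). Here the 2 labelled-deficient arrays differed from each other, and the wild-type signal exceeded the labelled-deficient one by 4.42 and 14.4 times in the pairs. Ifitm3 read 2874 and 1409 against 616 and 493, 3.57-fold lower (log2 -1.84 ± 0.35, limma adjusted p = 0.0428); the wild-type array of pair 1 was the high one, and the groups did not overlap. Bst2 read 435 and 453 against 432 and 419, a log2 difference of -0.06 ± 0.25 (limma adjusted p = 0.980). A fit without 1 array sets a lone array against 2, takes the spread from the other label and the variance shared across genes, and assumes that the lone array varies alike. In such fits Ifitm1 and Ifitm2 passed the threshold whichever array was left out. Ifitm3 missed it without labelled-deficient replicate 1 (log2 -1.99, limma adjusted p = 0.0539) or 2 (-1.68, 0.0923), with a difference of similar size. The Ifitm genes are close paralogues, and whether their probes bind each other's transcripts was not tested.

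The 3 falling Ifitm genes are direct neighbours on chromosome 7 in the RefSeq order, so their flanks were read as well, a choice made after their values were seen. Ifitm6, the next gene after Ifitm3, read 140.3 and 91.4 in wild-type against 86.7 and 216 in labelled-deficient cells, so its groups overlapped, and Ifitm5, on the other side of the trio, was below the filter. Beyond Ifitm6, B4galnt4 read 399 and 501 against 142 and 157 (log2 -1.48, limma adjusted p = 0.0451), and Pkp3 read 2344 and 3417 against 1404 and 1533 (log2 -0.94, adjusted p = 0.110, and 0.000426 with the pair as a block). Pgghg and Sigirr, the tested genes just outside these, stood at log2 -0.06 and 0.01.

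**Figure D2:**
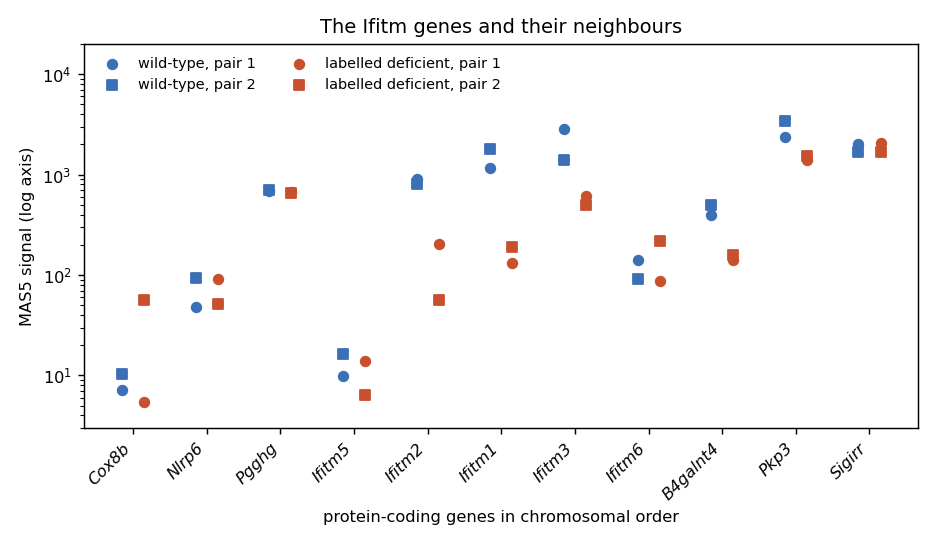
MAS5 signals (log axis) of 11 protein-coding genes around the Ifitm trio, in chromosomal order; blue is wild-type, orange labelled Foxo1/3-deficient, circles pair 1 and squares pair 2. Ifitm2, Ifitm1, Ifitm3, B4galnt4 and Pkp3 separate by label, Pgghg does so by a narrow margin, and Ifitm6 and Sigirr overlap.

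Of the genes that act on nucleotides and RNA, 3 were lower and 1 higher with the pair as a block. Cmpk2, a mitochondrial nucleotide kinase, read 1533 and 1236 in wild-type against 484 and 461 in labelled-deficient cells. It fell 2.85-fold (log2 -1.51 ± 0.24, limma adjusted p = 0.0261), with the 2 labelled-deficient readings close together, but missed the threshold without labelled-deficient replicate 1 (log2 -1.54, adjusted p = 0.0762) or 2 (-1.48, 0.0841). A dim second probe set of Cmpk2 read 168 and 11.8 against 66.4 and 42.2 and moved in opposite directions in the pairs; on the mean of both, Cmpk2 was not called.

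Rsad2, which encodes viperin and lies next to Cmpk2 in the genome, read 1146 and 950.3 against 683 and 497 (log2 -0.82 ± 0.27, limma adjusted p = 0.204, and 0.00580 with the pair as a block). Isg20, a nuclease of single-stranded RNA, read 3102 and 2945 against 1747 and 1542, 1.83-fold lower (adjusted p = 0.0776, and 0.000545 with the block). On these probe sets the groups were apart and the pairs alike for both genes. Wild-type signals were 1.68 and 1.91 times the labelled-deficient ones for Rsad2 and 1.78 and 1.91 times for Isg20. Of 3 Rsad2 probe sets above the filter, the dimmest went opposite ways in the pairs (log2 0.86 and -0.76). The other stood at log2 -0.48.

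Samhd1, which breaks down the nucleotides that viruses need for DNA synthesis, was the 1 member that was higher with the pair as a block. It read 7014 and 5993 in wild-type against 8889 and 9466 in labelled-deficient cells, a log2 difference of 0.50 ± 0.18 (limma adjusted p = 0.259, and 0.0475 with the pair as a block). All 5 of its probe sets lay above 0, from log2 0.28 to 0.79. The farthest of them read 5317 and 4352 against 9242 and 7472 and passed with the block when every probe set was tested (adjusted p = 0.0220), where the brightest did not (0.153).

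Among the 2-5A synthetase genes, whose products make the 2-5A messenger that activates RNase L, Oas1a and Oas3 were lower with the block and Oas2 was not called. Oas1a read 1046 and 916 against 537 and 482, a separation of nearly the same size in both pairs (1.95 and 1.90 times), with log2 -0.92 ± 0.24 (limma adjusted p = 0.113, and 0.00271 with the block). Oas3 read 614 and 444 against 319 and 87.6 (log2 -1.52 ± 0.52, adjusted p = 0.233, and 0.00109 with the block), and most of its size came from pair 2. Oas2 read 243 and 163 against 307 and 128, so the pairs went opposite ways and its log2 difference was 0.00 ± 0.44. Oasl1 and Oasl2, relatives of the synthetases, stood at -0.11 ± 0.34 and -0.04 ± 0.53, neither called.

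Mx1, a dynamin-like GTPase that blocks influenza and related viruses and is defective in most laboratory strains, read 558 and 474 in wild-type against 220.4 and 262 in labelled-deficient cells. Its log2 difference was -1.05 ± 0.28 (limma adjusted p = 0.113, and 0.00731 with the block), and the groups did not overlap. When every probe set was tested, Mx1 just missed the threshold with the block (limma adjusted p = 0.0546). The IFIT genes, whose products bind viral RNA and stop its translation, showed no such separation. Ifit1 read 1287 and 847 against 1177 and 724 (log2 -0.17 ± 0.32), Ifit2 2191 and 1646 against 2307 and 2136 (0.22 ± 0.23) and Ifit3 616 and 668 against 728 and 508 (-0.08 ± 0.27). Eif2ak2, which encodes the kinase PKR, stood at -0.01 ± 0.35. The groups overlapped for all 4 of these genes, and none was called with or without the block.

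Of the sensors of foreign nucleic acid, Zbp1 and Ifih1 were lower with the block and Ddx58 and Dhx58 were not called. Zbp1, which detects Z-form RNA and DNA, read 1697 and 722 against 576 and 409, and the fall was larger in pair 1 (log2 -1.16 ± 0.41; limma adjusted p = 0.246, and 0.000601 with the block). A second, dimmer Zbp1 probe set stood at log2 -0.31 ± 0.37. Ifih1, which encodes MDA5, read 2763 and 3972 against 1721 and 2345 (log2 -0.72 ± 0.26; adjusted p = 0.269, and 0.00305 with the block). Ddx58, which encodes RIG-I, read 2486 and 2482 against 2014 and 2060.3, a small separation (log2 -0.28 ± 0.20) that passed in neither fit, and Dhx58, which encodes LGP2, stood at -0.04 ± 0.31.

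In the ISG15 and ubiquitin group no gene was called by genotype. Usp18, the protease that removes ISG15 and restrains the type I interferon receptor, read 1045 and 611 against 877 and 543 (log2 -0.21 ± 0.35). Herc6, the mouse ligase for ISG15, stood at -0.36 ± 0.22, Trim30a at -0.32 ± 0.19 and Trim25, a ligase that acts with RIG-I, at 0.17 ± 0.21. On their brightest probe sets, Herc6 and Trim30a were lower on both labelled-deficient arrays, and Usp18 and Trim25 overlapped. A second Trim30a probe set stood at log2 -0.0077, with overlapping groups. Of 4 Herc6 probe sets, 3 lay below 0 and 1 above, at log2 0.22. The brightest Trim25 probe set is of a kind that can bind several transcripts, as are those used for Ifi27, Ifi35 and Tor3a.

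Parp14, Parp9 and Dtx3l lie side by side on chromosome 16; Parp9 and Dtx3l form a complex that couples ADP-ribose to ubiquitin. Parp14 read 6561 and 7845 in wild-type against 3475 and 5244 in labelled-deficient cells (log2 -0.75 ± 0.24; limma adjusted p = 0.198, and 0.00250 with the block). Parp9 and Dtx3l were lower without overlap too, at log2 -0.42 ± 0.19 and -0.35 ± 0.20, but were called in neither fit.

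All 4 antigen-processing genes were lower on both labelled-deficient arrays, and 3 of them passed with the pair as a block. Tap1, a subunit of the peptide transporter, read 8675 and 4626 against 3986 and 2634 (log2 -0.96 ± 0.33; limma adjusted p = 0.235, and 0.000190 with the block). Psmb9, a catalytic subunit of the immunoproteasome, read 8441 and 8000.3 against 5399 and 4861 (log2 -0.68 ± 0.18; 0.109, and 0.00463 with the block). These 2 genes point away from each other on chromosome 17 and their promoter windows share 275 of 300 bases. The spread between wild-type arrays was wide for Tap1 and narrow for Psmb9.

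Tapbp, which encodes tapasin, read 13207 and 11882 against 7915 and 8833 (log2 -0.58 ± 0.17; limma adjusted p = 0.154, and 0.0220 with the block). When every probe set was tested, this one missed the threshold with the block (limma adjusted p = 0.0941). Psmb8, the partner subunit of Psmb9, read 7100.3 and 7244 against 5069.9 and 5243; its groups were apart in both pairs by nearly the same ratio, and it just missed the threshold with the block (log2 -0.47 ± 0.17; 0.270, and 0.0503 with the block).

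Of the remaining genes, Rtp4, a chaperone of receptors, read 3751 and 3669.6 in wild-type against 2564 and 1989.8 in labelled-deficient cells and was lower with the block (log2 -0.71 ± 0.21; limma adjusted p = 0.163, and 0.00383 with the block). Ifi47, itself an interferon-gamma-induced GTPase, stood at -0.26 ± 0.18 and Ifi27 at -0.42 ± 0.28. Ifi35, Xaf1 and Tor3a lay between log2 -0.18 and -0.11. None of these 5 was called by genotype in either fit.

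**Figure D3:**
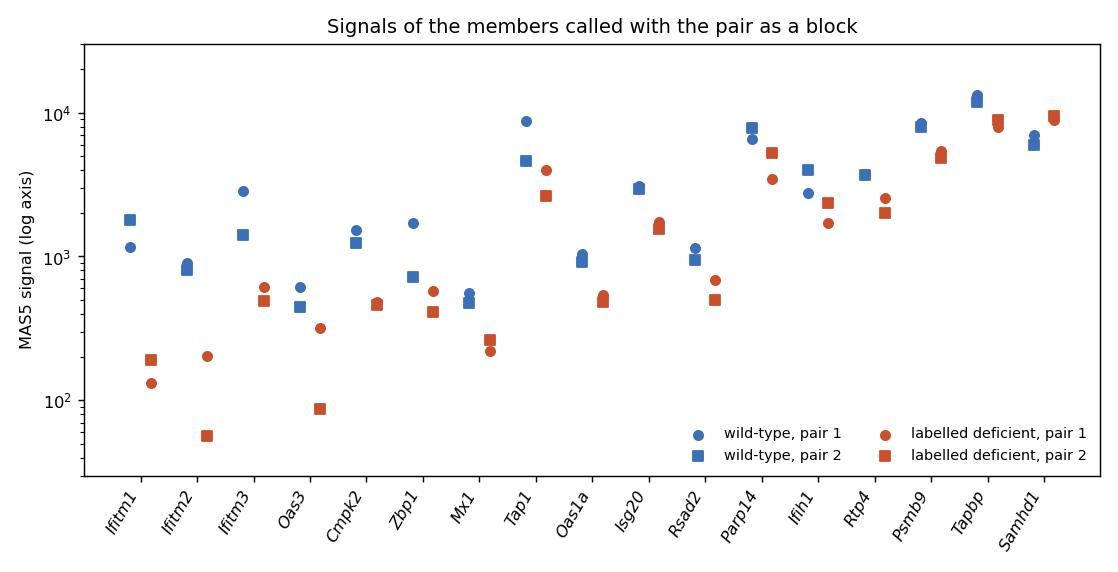
MAS5 signals (log axis) on each array of the 17 interferon-stimulated genes called with the pair as a block, ordered by log2 difference; blue is wild-type, orange labelled Foxo1/3-deficient, circles pair 1 and squares pair 2. In 16 genes both orange points lie below both blue ones, and for Samhd1 they lie above; levels are not comparable between genes.

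**Figure D4:**
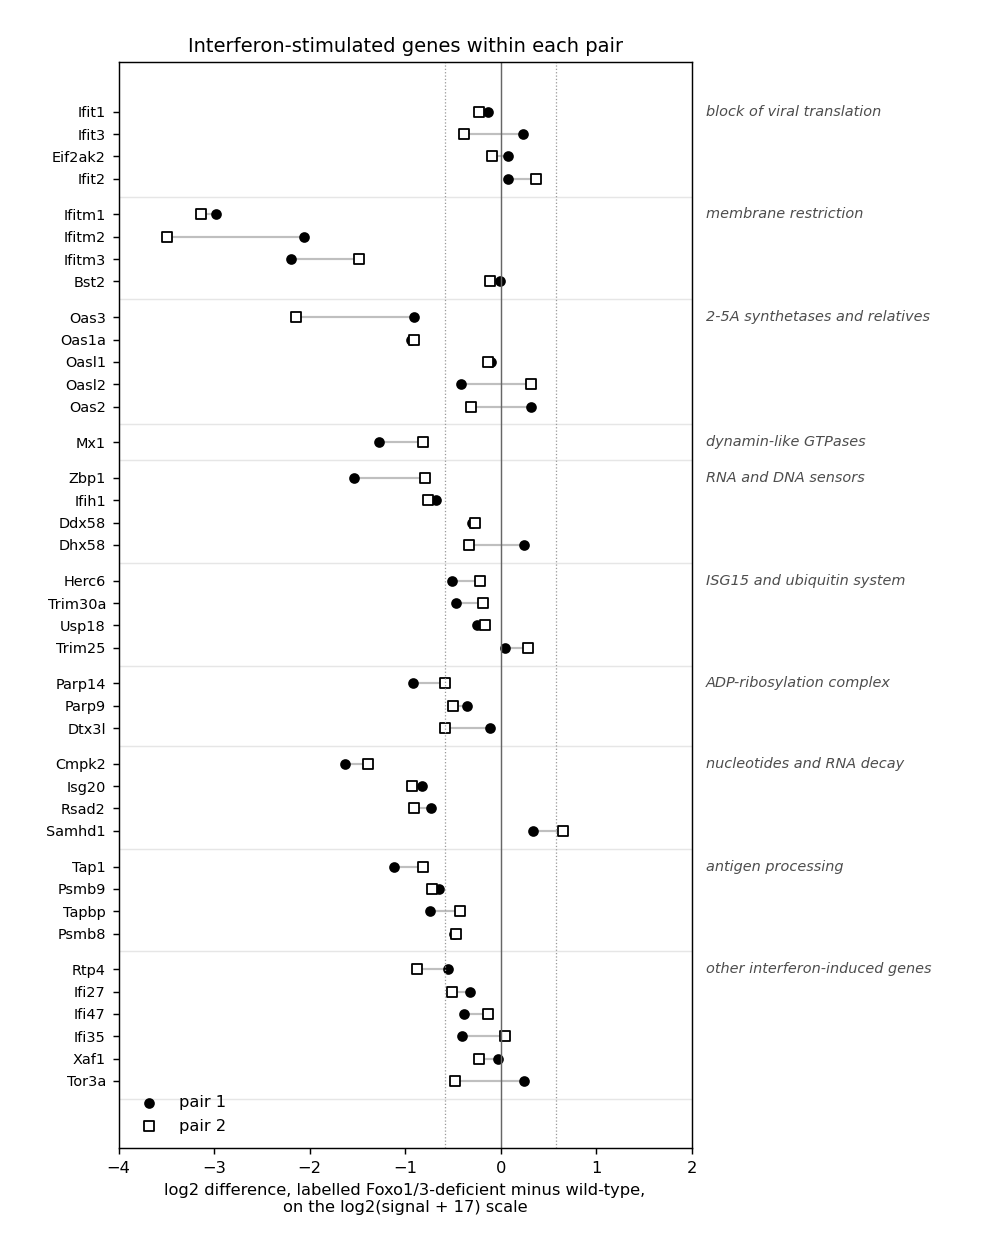
Log2 difference (labelled Foxo1/3-deficient minus wild-type, on the log2(signal + 17) scale) of the 39 genes within pair 1 (filled circles) and pair 2 (open squares), grouped by role; dotted lines mark 1.5-fold. Ifitm1 and Ifitm2 lie far to the left in both pairs (log2 -2.98 and -3.14, and -2.06 and -3.49), Oas3 does so in pair 2 alone (-2.14), and the IFIT genes lie around 0.

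Several members were called between the pairs and not between the labels. With genotype in the same fit, 8 of 39 were lower in pair 2 (4.22% of all genes) and 1 higher (3.31%). Oasl2 read 358 and 113 in wild-type against 265 and 145 in labelled-deficient cells, so both arrays of pair 1 were the high ones (pair 2 minus pair 1, log2 -1.16 ± 0.31, limma adjusted p = 0.0268). Xaf1, a pro-apoptotic factor, read 2271 and 1485 against 2221 and 1268, again with pair 1 high. Ifit1, Usp18 and Xaf1 were lower in pair 2 by log2 -0.64 ± 0.18 (0.0349), -0.72 ± 0.19 (0.0296) and -0.70 ± 0.16 (0.0112). Ifitm3, Oas3, Zbp1 and Tap1 were lower in pair 2 as well as on the labelled-deficient arrays, and Ifi27, at 2844 and 4471 against 2271 and 3135, was higher in pair 2 (log2 0.56 ± 0.16, 0.0332).

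When both terms were fitted, 13 of 39 were called for genotype alone (10.6% of all genes), 5 for pair alone (5.99%), 4 for both (1.54%) and 17 for neither (81.9%); a call for one term alone does not show that the other had no effect. The pairs differ in sex-linked signal, as given above, and in B cell markers, whose summed signal was 2236 and 2602.5 in pair 1 against 755 and 1675 in pair 2 (wild-type first). The T cell genes Cd4 and Cd3e were lower in pair 2 as well, by log2 -0.84 ± 0.17 and -0.81 ± 0.16 (limma adjusted p = 0.00386 and 0.00327). The macrophage and neutrophil marker sums, given below, were also lower in pair 2 under both labels, with S100a8 at log2 -1.89 ± 0.41 (0.00735) and Csf1r at -0.52 ± 0.16 (0.0490). Pair, sex-linked signal and these markers cannot be told apart here. These pair calls depended on the processing: without the intensity trend 0 genes were lower and 0 higher in pair 2, and without the filter 2 and 0.

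**Figure D5:**
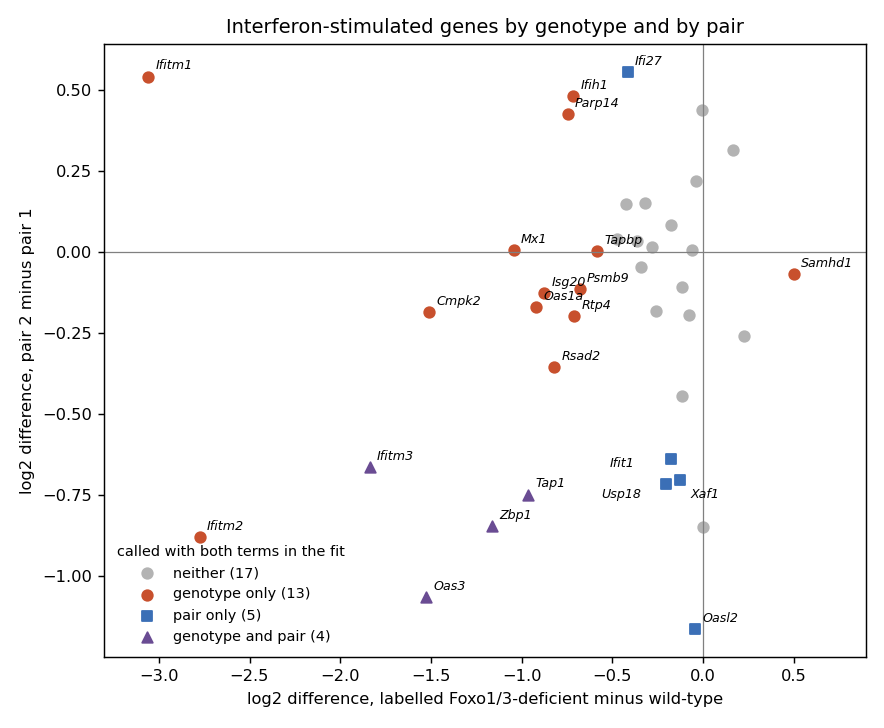
Log2 difference between labels (horizontal) against log2 difference between pairs (vertical) of the 39 genes, marked by which term was called (limma adjusted p under 0.05) in a fit with both. The orange circles (13, genotype alone) lie left of 0 except Samhd1, the blue squares (5, pair alone) lie low except Ifi27, and the purple triangles (4) are low on both axes.

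Genes that carry the interferon signal were read from lists of ligands, receptors, sensors and brakes. Ifng, the gene of interferon-gamma, read 1382 and 2738 in wild-type against 254 and 298 in labelled-deficient cells and fell 6.72-fold (log2 -2.75 ± 0.35, limma adjusted p = 0.0106). The 6 other ligand genes with a probe set, Ifnb1 and 5 of the interferon-alpha family, were all below the filter. Of 34 such pathway genes tested, Ifng was the one called without the block (1 lower and 0 higher, against 1.37% and 1.23% of all genes), and 5 were lower and 3 higher with it (6.60% and 5.51%); their median log2 difference was -0.10.

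No receptor chain was called by label. For the type I receptor, Ifnar1 read 1268 and 1671 against 1392 and 2098 (log2 0.23 ± 0.28) and Ifnar2 1316 and 1575 against 1529.7 and 1468 (0.06 ± 0.22). For the interferon-gamma receptor, Ifngr1 read 2719 and 4274 against 1988 and 4008 (-0.27 ± 0.36) and Ifngr2 248 and 210.0 against 373 and 259 (0.42 ± 0.31). Ifngr1 was higher in pair 2 with either label (log2 0.83 ± 0.16, limma adjusted p = 0.00326). Of the kinases that sit on these chains, Jak2 read 7209 and 7231 against 3668 and 4883 and Tyk2 1649 and 1584 against 937 and 1245, both lower with the block (adjusted p = 0.00218 and 0.0376; 0.115 and 0.357 without it). Jak1 went the other way, at 4380.1 and 5346 against 6977 and 6895 (0.0355 with the block and 0.269 without it). Stat2 and Irf9, subunits of the ISRE-binding complex, read 229 and 229.8 against 255 and 121 and 2902 and 2158 against 2673 and 1970.2, with log2 differences of -0.34 ± 0.38 and -0.12 ± 0.25.

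Among sensors upstream of interferon, Tlr7, an endosomal RNA receptor, read 142 and 37.8 in wild-type against 434 and 251 in labelled-deficient cells and was higher with the block (limma adjusted p = 0.000422; 0.135 without it). Cgas (annotated as Mb21d1), the DNA sensor, read 918 and 2366 against 613 and 1083 and was lower with the block (0.00350; 0.544 without it). Of the brakes, Cish, a target and inhibitor of STAT5 signalling, read 5795 and 8239 against 3551 and 3635 (0.000361 with the block; 0.0776 without it), and Ptpn6, a phosphatase gene, read 3871 and 3146 against 5899 and 4039 and was higher with the block (0.0478; 0.491 without it). Socs1 and Socs3, inhibitors of JAK kinases, stood at log2 -0.58 ± 0.33 and -0.12 ± 0.22 and were not called.

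Ifitm and other members are also expressed by spleen cells other than Treg cells, so marker lists were read on each array. Macrophage and monocyte markers (6 of 6 with a probe set) summed to 6737 and 4341 in wild-type against 9454 and 7044 in labelled-deficient cells. This was the opposite order to the Ifitm genes. Most of that sum was Csf1r, at 4749 and 2987 against 6676 and 5165. Itgam was below the filter, and Adgre1 and Csf1r were higher with the block (limma adjusted p = 0.000630 and 0.00821). Fcgr1 was higher on both labelled-deficient arrays and was not called. Lyz2 (log2 -0.14 ± 0.29) and Cd14 (0.50 ± 0.41) had overlapping groups. Neutrophil markers (4 of 5) summed to 742 and 199.6 against 221 and 105. These sums were lower on the labelled-deficient array within each pair, as for the Ifitm genes, but their ranges overlapped between the labels. S100a9 was below the filter, and Csf3r stood at log2 -0.19 ± 0.54. Mpo, at 495 and 57.0 against 44.8 and 33.3, made up most of the high wild-type reading. It was lower with the block (limma adjusted p = 0.0145, and 0.399 without it). Natural killer cell markers (3 of 4) summed to 1081 and 1453 against 396 and 342, nearly all of it Eomes, which T cells also express and which was lower in both fits (limma adjusted p = 0.0202, and 4.90e-06 with the block); Ncr1 and Klra8 were below the filter.

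B cell markers (4 of 5), plasmacytoid dendritic cell markers (5 of 5), conventional dendritic cell markers (4 of 4) and CD8 T cell markers (2 of 2) had sums whose ranges overlapped between the labels: 755 to 2236 against 1675 to 2602.5, 2615 to 4394 against 2401 to 3491, 628 to 744 against 647 to 819, and 367 to 518 against 423 to 663. Most of the plasmacytoid sum was Ccr9, at 3510 and 1981 in wild-type against 1337 and 2351 in labelled-deficient cells. Tcf4, Spib and Klk1 of that list were higher on both labelled-deficient arrays, and Siglech and Ccr9 overlapped. None of these 5 genes was called in either fit. Within each pair the B cell and conventional dendritic cell sums were higher on the labelled-deficient array. Ms4a1, a B cell marker, was higher with the block (limma adjusted p = 0.00356, and 0.487 without it). Erythroid markers (2 of 4) were dim and summed to 85.2 and 146.9 in wild-type against 82.8 and 76.3 in labelled-deficient cells, lower without overlap. Hba-a1 was below the filter, and Klf1 (log2 -0.24 ± 0.37) was called in neither fit. The part of all these cells in the falls was not tested. In such bulk RNA, fewer cells of a type and less RNA per cell cannot be told apart. Without the wild-type array that held both Xist and Y-linked signal, Ifitm1, Ifitm2 and Ifitm3 stood at log2 -2.75, -2.85 and -2.35. The median log2 difference of the 39 members was then -0.46. That fit holds a lone wild-type array, so its spread comes from the labelled-deficient arrays and the shared variance.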

How the data were processed

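The 4 arrays were 1-colour Affymetrix arrays of Treg cell RNA labelled with biotin, per the labels' protocols. The deposited values are linear intensities, 1 for each probe set, and the submitters' processing notes name MAS5 without a version or settings. Each array had a 2% trimmed mean of 500.003, so no scaling was added. The annotation gave 1 symbol for 34945 of 45101 probe sets, several for 932 and none for 9160; 64 were controls. Symbols were updated by gene ID to RefSeq GRCm38.p6.

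Signals were tested as log2(signal + 17), 17 being the rounded 25th percentile of all values; this understates the change of dim genes. limma 3.58.1 in R 4.3.3 (eBayes with an intensity trend, two-sided, Benjamini-Hochberg over 12105 genes, threshold 0.05) compared 2 arrays with 2, where an exact test cannot give a p under 0.333. The titles call the numbers pairs; deviations from group means correlated across genes within them (r = 0.368, genes not being independent replicates). The fit without the pair is the one reported first; the pair as a block is given beside it where it changed a call. The members and lists were chosen with earlier results of these data known. Signals on each array are given for members called by genotype or pair or changed at least 1.5-fold in both pairs, and for others as needed. Detection calls were not analysed here.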

Additional observations from a re-analysis of the deposited data

How the results depend on the processing

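The pair as a replicate block had the largest effect: it gave 16 lower and 1 higher interferon-stimulated genes, and 799 lower and 667 higher among all genes, where the unblocked fit gave 4 and 0, and 166 and 149. Without the filter there were 1 lower member, 45 lower and 46 higher genes, and 2 lower and 0 higher members in pair 2. Without the intensity trend there were 1 lower member, 55 lower and 58 higher genes, and 0 lower and 0 higher members in pair 2. Quantile normalization left 4 members lower in pair 2, and the mean of probe sets left 0 higher in pair 2 and a members' median log2 difference of -0.32. When 1 array was left out, 2 to 6 members were lower and 0 higher, the members' median ran from -0.49 to -0.44, and 82 to 258 of all genes were lower and 70 to 269 higher, most without wild-type replicate 1 and fewest without labelled-deficient replicate 1. Without labelled-deficient replicate 2 the 2 members called were Ifitm1 and Ifitm2. Ifitm1 was called under all 12 alternatives other than the block, Ifitm2 under 10, Ifitm3 under 8 and Cmpk2 under 7. A pseudocount of 1 or of the median, the filter at the 60th percentile, quantile normalization and the probe set of highest mean log2 value left the same 4 members called.

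Signs turned among uncalled genes. When 1 array was left out, the log2 difference ran from -0.52 to 0.17 for Ifit1, -0.33 to 0.18 for Ifit3, -0.27 to 0.25 for Eif2ak2, -0.58 to 0.58 for Oas2, -0.35 to 0.12 for Oasl1, -0.81 to 0.72 for Oasl2, -0.29 to 0.21 for Dhx58, -0.58 to 0.17 for Usp18, -0.050 to 0.38 for Trim25, -0.53 to 0.27 for Xaf1 and -0.35 to 0.12 for Tor3a. Oas2 stood at -0.0081 with a pseudocount of 1 and at -0.062 under quantile normalization, and Xaf1 at 0.14 on the mean of its probe sets. The causes were not tested.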
